A study of Mus musculus with 4 samples.

Results

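This report covers 4 genes for hypothalamic peptides and 4 genes for their receptors, 8 of the 31053 genes counted in the deposited files. The peptide genes were Pmch (melanin-concentrating hormone, MCH), Hcrt (orexin, also called hypocretin), Npvf and Qrfp (precursors of RF-amide peptides), and the receptor genes were Mchr1, Hcrtr1, Hcrtr2 and Qrfpr. They were picked by name, with the high level of Pmch in 1 library already known. Differences of the peptide genes between libraries, treatments and classes, and the nuclei that carried them, are thus given as a description with no test. Nuclei came from punches of the hypothalamic arcuate nucleus (ARC), taken from wildtype male C57BL/6J mice 10 weeks old. DOCA-salt mice had 3 weeks of deoxycorticosterone acetate with salt, and Sham mice were the controls of the same 3 weeks. Each of the 4 libraries (DOCA-salt 1 and 2, Sham 1 and 2) was a pool of mice, so 2 pools stood for each treatment, and a punch can take in tissue that borders the ARC.

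MCH and orexin are made by separate neurons of the lateral hypothalamic area and zona incerta, which lie beside and above the ARC, and both send axons through much of the brain. MCH neurons are known for sleep and energy storage, and orexin neurons for wakefulness and feeding. Npvf neurons sit in the dorsomedial hypothalamus, and Qrfp neurons are scattered through the lateral and tuberal hypothalamus. All 4 receptors are G protein-coupled: MCHR1 mainly lowers cyclic AMP, the orexin receptors mainly raise calcium through Gq, and QRFPR binds the longest RF-amide peptide.

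The 4 peptide genes are short. Pmch lies on chromosome 10 at 88091072 to 88092375 on the plus strand (GRCm38) and overlaps 944 bases of Parpbp on the opposite strand. Hcrt lies on chromosome 11 at 100761069 to 100762931, Npvf on chromosome 6 at 50650672 to 50654439 and Qrfp on chromosome 2 at 31806166 to 31810580, all on the minus strand. The receptor genes were Mchr1 (chromosome 15, 81235499 to 81238964, plus strand), Hcrtr1 (chromosome 4, 130130217 to 130139359), Hcrtr2 (chromosome 9, 76225880 to 76323856) and Qrfpr (chromosome 3, 36179424 to 36222313), the last 3 on the minus strand. All 8 are protein-coding in the annotation.

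Since Pmch, Hcrt and Npvf were high together in 1 library, the 100 bases just upstream of each start are shown, from RefSeq on GRCm38.p6 and 5′ to 3′ along the gene. Capitals mark the letters TATAAA, the core of the TATA box that places the start of transcription at many highly expressed genes.
Pmch (chr10:88090972-88091071, plus strand): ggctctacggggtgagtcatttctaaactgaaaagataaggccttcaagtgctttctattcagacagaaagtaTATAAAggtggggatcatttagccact
Hcrt (chr11:100762932-100763031, minus strand): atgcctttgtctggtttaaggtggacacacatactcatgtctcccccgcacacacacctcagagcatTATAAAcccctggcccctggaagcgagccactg
Npvf (chr6:50654446-50654545, minus strand): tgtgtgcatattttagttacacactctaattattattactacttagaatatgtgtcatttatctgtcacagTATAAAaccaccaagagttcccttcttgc
Qrfp (chr2:31810581-31810680, minus strand): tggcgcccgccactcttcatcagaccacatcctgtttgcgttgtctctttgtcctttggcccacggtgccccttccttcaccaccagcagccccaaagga
TATAAA began 27 bases before the start in Pmch, 33 in Hcrt and 29 in Npvf. Qrfp and the listed starts of the 4 receptor genes did not hold these letters in this window on either strand. Of 32851 RefSeq starts with a window of this length, 3.80% held TATAAA on the gene's strand and 5.56% on either strand. A match of letters is a description of the sequence and was not tied to any measurement here.

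Nuclei were kept by the limits of the study on genes, UMIs (unique molecular identifiers, 1 per captured RNA molecule) and mitochondrial share. This left 10307, 18907, 2203 and 7759 nuclei for DOCA-salt 1, DOCA-salt 2, Sham 1 and Sham 2, with a median depth of 2401, 2534, 8215 and 3278 UMIs per nucleus. DOCA-salt 2 stood apart from the other libraries in tissue markers. Its Agrp level, which marks ARC neurons, was 1.57 CPM (UMIs of a gene scaled to a common library total) against 52.1 to 208.7 elsewhere, while the oxytocin gene Oxt was at 910.4 CPM against 8.95 to 420.2. Pomc (38.4 against 173.5 to 348.1 CPM) and Ghrh (17.7 against 32.4 to 79.6) were also lower there. Tac2, another gene of ARC neurons, was not, at 67.7 CPM against 62.2 to 72.2. Kiss1, another ARC marker, had no UMI in 3 libraries and 0.0506 CPM in Sham 2. Its symbol has 2 entries among the counted genes, and the cause of its low count was not tested. DOCA-salt 1 had more of the striatal gene Ppp1r1b, 61.5 CPM against 3.34 to 4.52. In such sums over a library, more nuclei of a type and more RNA per nucleus cannot be told apart, and intervals given here cover counting error only. Pairs of libraries shared 1 to 44 barcodes.

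Peptide genes differed between libraries far more than receptor genes did. Pmch stood at 29.2, 2849, 43.9 and 30.7 CPM in DOCA-salt 1, DOCA-salt 2, Sham 1 and Sham 2. Hcrt stood at 1.74, 803.5, 13.0 and 2.48 CPM in the same order. Npvf was at 0.534, 37.3, 0.141 and 0.860 CPM. DOCA-salt 2 was highest for these 3 genes, and DOCA-salt 1 lay among or below the Sham libraries, so the treatment groups overlapped. Qrfp did not follow them: it stood at 0.107, 5.36, 9.08 and 1.06 CPM, highest in Sham 1.

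Receptor levels lay within a narrower range. Mchr1 was at 16.9, 10.3, 10.1 and 8.91 CPM, with both DOCA-salt libraries above both Sham libraries by a small margin. Hcrtr1 was the most even, at 13.1, 16.7, 14.7 and 13.0 CPM. Hcrtr2 stood at 28.8, 14.99, 12.4 and 17.2 CPM, highest in DOCA-salt 1. Qrfpr stood at 6.68, 14.1, 5.88 and 6.70 CPM, with DOCA-salt 2 apart and the other 3 libraries close together.

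**Figure D1:**
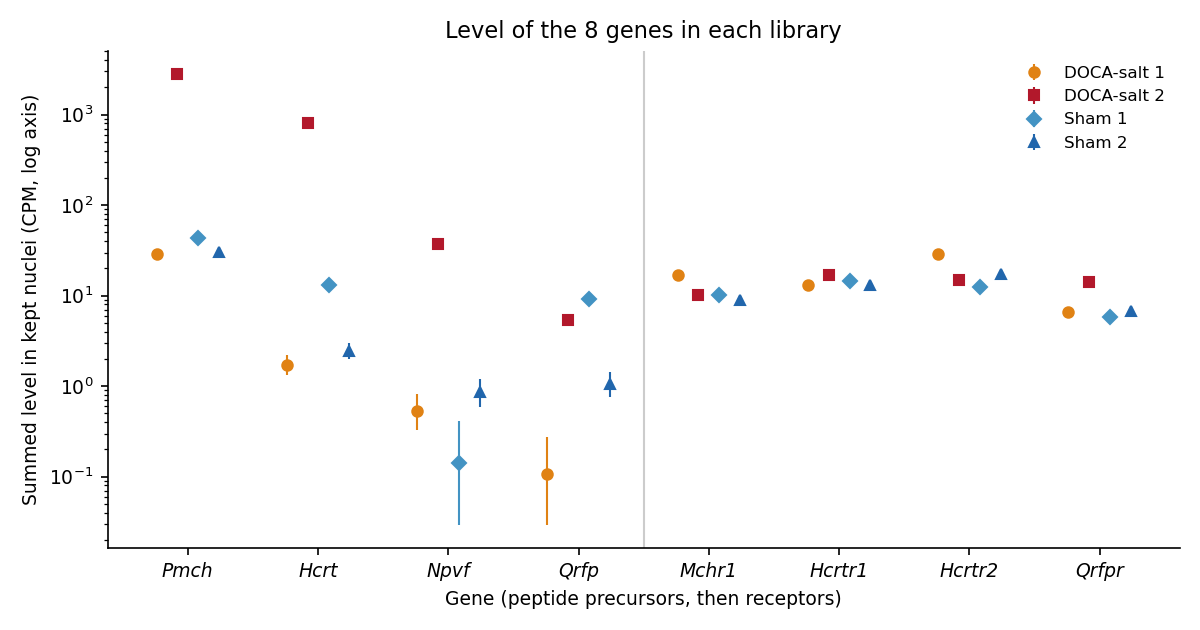
Level of each gene in each library (CPM, log axis; bars are 95% Poisson intervals, counting error only). DOCA-salt 2 is the highest library for Pmch, Hcrt, Npvf and Qrfpr, Sham 1 for Qrfp, and the receptor genes all lie between 5.88 and 28.8 CPM.

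Fitted values for treatment followed these levels. Libraries were summed and fitted over all tested genes with edgeR, and the log2 fold change of DOCA-salt over Sham was 5.27 ± 1.80 for Pmch (SE), 5.72 ± 2.32 for Hcrt, 5.09 ± 1.80 for Npvf and -0.86 ± 1.46 for Qrfp. The first 3 values rested on DOCA-salt 2. Without it, the change was -0.44 for Pmch, -2.22 for Hcrt and -0.14 for Npvf. For Qrfp the change turned to 0.13 without DOCA-salt 1 and to 1.40 without Sham 1. The Hcrt and Npvf levels share the library that drew attention to Pmch, so none of these 4 differences is offered as a test.

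No receptor gene passed the test for treatment. With edgeR's quasi-likelihood test and Benjamini-Hochberg adjustment (FDR under 0.05), 0% of the 16564 genes tested were called (1399 had an unadjusted p under 0.05, and DESeq2 called 107, no receptor gene among them). Mchr1 stood at 0.47 ± 0.27 on the log2 scale (SE, edgeR adjusted p = 0.661), Hcrtr1 by 0.07 ± 0.22 (0.938), Hcrtr2 by 0.51 ± 0.32 (0.679) and Qrfpr by 0.70 ± 0.39 (0.655). Without DOCA-salt 1, Qrfpr was at 1.15 (adjusted p = 0.0362), a fit in which DOCA-salt 2 stood alone and the Sham pools gave the spread, and without DOCA-salt 2 it was at -0.0058. In neuron-gated nuclei alone, 0% of 15793 genes were called, and the receptor genes had adjusted p between 0.615 (Qrfpr) and 0.846 (Hcrtr1). At this number of pools, genes simulated with a log2 fold of 2 were recovered in 70% of cases over all nuclei and 80.5% in neurons. The receptor differences were smaller than that fold, so these shares do not give the power to find them. An exact permutation test of 2 against 2 pools cannot go below a two-sided p of 0.333 for a single value.

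The UMI counts of single nuclei ran from scattered molecules to nuclei rich in a peptide's RNA. For Pmch in DOCA-salt 2 there was no gap between them, with 3933 nuclei at 2 to 4 UMIs, 456 at 5 to 9 and 563 at 10 to 49. In DOCA-salt 2, 60.1% of nuclei had at least 1 Pmch UMI, but 1514 of 18907 had 5 or more, 320 had 100 or more and 42 had 1000 or more. In that library 82 nuclei held 50% of all 197696 Pmch UMIs, and the richest held 3273. Hcrt followed with UMIs in 5154 nuclei, 567 of them with 5 or more, 110 with 100 or more and 7 with 1000 or more. Npvf reached 100 UMIs in 5 nuclei of DOCA-salt 2, and Qrfp in none.

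In the other libraries the tail was short. Pmch had 1094 UMIs in DOCA-salt 1, and a single nucleus held 779 of them. It had 934 UMIs in Sham 1, where the richest nucleus held 163, and 1214 in Sham 2, where the richest held 370. Hcrt in DOCA-salt 1 and Sham 2 was made of single molecules, since 93.9% and 89.8% of its UMIs lay in nuclei with 1 UMI. In Sham 1 it had a nucleus with 113 UMIs and another with 30.

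**Figure D2:**
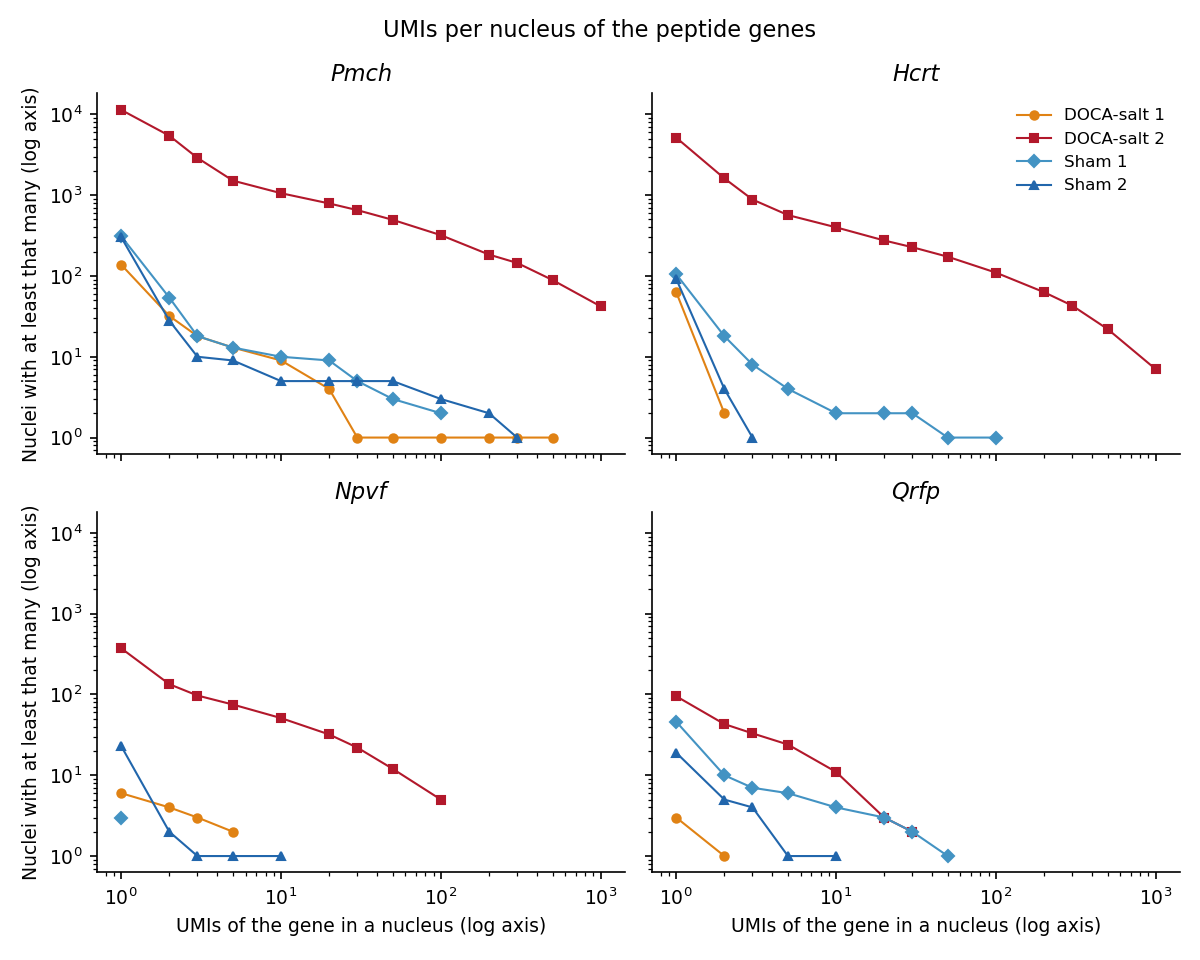
Number of nuclei (log axis) with at least a given number of UMIs of the gene (log axis), 1 panel per peptide gene and 1 line per library. For Pmch and Hcrt, the line of DOCA-salt 2 stays above the others and runs past 1000 UMIs, and for Qrfp the lines of DOCA-salt 2 and Sham 1 meet at 20 UMIs.

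A nucleus was called a source of a peptide where it held at least 5 UMIs of the gene and at least 10 times the level, per UMI, of oligodendrocyte-gated nuclei of the same library. Oligodendrocytes do not make these peptides, so their level was taken for RNA that was free in the suspension. That level included oligodendrocyte-gated nuclei then called sources. Without them it fell in DOCA-salt 2 from 1155 to 681.2 CPM for Pmch and from 601.0 to 204.5 for Hcrt. For Npvf it fell there from 15.02 to 4.8 CPM and for Qrfp from 10.24 to 0.6855. The bar in DOCA-salt 2 was thus more than 10 times the level of non-source oligodendrocytes. Pmch source nuclei numbered 13, 599, 13 and 9 in DOCA-salt 1, DOCA-salt 2, Sham 1 and Sham 2. These were 0.126%, 3.17%, 0.590% and 0.116% of nuclei (exact binomial 95% intervals 0.0672 to 0.216, 2.92 to 3.43, 0.315 to 1.01 and 0.0531 to 0.220). Source nuclei were thus present in every library, and their share was highest in DOCA-salt 2. The fold rule kept 599 of the 1514 nuclei with 5 or more Pmch UMIs in DOCA-salt 2. In DOCA-salt 1, Sham 1 and Sham 2 it removed none of the 13, 13 and 9 such nuclei. The Pmch shares therefore rest on unlike bars, and the libraries differ in depth.

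Hcrt source nuclei numbered 0, 273, 4 and 0 in the same order, where 0 of 10307 allows a share of up to 0.0291% and 0 of 7759 up to 0.0387%. Npvf had 2, 75, 0 and 1 source nuclei, and Qrfp had 0, 24, 6 and 1. Oligodendrocytes held 0 UMIs of Hcrt in DOCA-salt 1, of Npvf in DOCA-salt 1 and Sham 1, and of Qrfp outside DOCA-salt 2. There the fold rule was void and 5 UMIs alone made a source, a bar that deeper nuclei reach more easily. In DOCA-salt 2 the fold rule also removed none of the 75 Npvf and 24 Qrfp nuclei with 5 or more UMIs. Qrfp source nuclei had a median depth of 17650 UMIs in Sham 1 and 5629 in DOCA-salt 2. The Qrfp shares of these libraries are thus not compared at equal depth. Orexin source nuclei were therefore seen in 1 library of each treatment, and for Qrfp the intervals of DOCA-salt 2 (0.127%, 0.0814 to 0.189) and Sham 1 (0.272%, 0.100 to 0.592) overlapped. Looser and stricter rules moved the count of Pmch source nuclei in DOCA-salt 2 from 815 to 443, with the nuclei on either side of the rule at 10.0 and 9.93 times the oligodendrocyte level.

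Source nuclei held most of the Pmch RNA in every library, and most of the other peptides' RNA in some. They carried 83.7% of all Pmch UMIs in DOCA-salt 2, and 86.3%, 63.1% and 74.2% in DOCA-salt 1, Sham 1 and Sham 2. Of Hcrt they carried 81.2% in DOCA-salt 2 and 56.3% in Sham 1. Of Npvf and Qrfp they carried 85.1% and 72.9% in DOCA-salt 2. In Sham 1 they carried 76.2% of Qrfp, in Sham 2 32.4% of Npvf and 38.1% of Qrfp, and in DOCA-salt 1 65.0% of Npvf. There were no source nuclei, and so 0%, for Hcrt in DOCA-salt 1 and Sham 2, Npvf in Sham 1 and Qrfp in DOCA-salt 1.

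Most Pmch source nuclei of DOCA-salt 2 had neuronal markers or too few marker UMIs to be gated. Of the 599, 308 were neuron-gated, 183 passed no gate, 40 carried markers of more than 1 class and the rest passed a glial, vascular or ependymal gate, among them 25 astrocyte-gated and 11 endothelial-gated nuclei. Of all 18907 nuclei of that library, 10639 were neuron-gated and 3908 passed no gate. Pmch sources were 2.895% of neuron-gated, 4.68% of ungated, 2.53% of astrocyte-gated, 1.20% of oligodendrocyte-gated, 2.60% of microglia-gated and 6.79% of endothelial-gated nuclei. Over all nuclei the share was 3.17%, so sources were not more common among neuron-gated nuclei. Their median depth was 2030 UMIs against 2542 in other nuclei. A high doublet score was found in 25.2% of them and in 15.1% of all nuclei of that library. Hcrt source nuclei were split alike, 146 of 273 being neuron-gated, and 16.8% had a high doublet score. They were 1.37% of neuron-gated nuclei and 1.44% of all nuclei. Automatic doublet calls marked 0 to 2 nuclei a library and did not work, so the nuclei with the highest scores were taken as a share set by the number of nuclei. The part of doublets in these counts was not tested.

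Few nuclei were sources of 2 peptides. In DOCA-salt 2, 9 nuclei were sources of both Pmch and Hcrt, 1.503% of the Pmch and 3.30% of the Hcrt source nuclei. Over all nuclei of that library, 3.17% were Pmch, 1.44% Hcrt and 0.397% Npvf sources. The overlap of Pmch and Hcrt thus lay near the shares over all nuclei and does not set their sources apart. Pmch and Npvf shared 5 source nuclei and Hcrt and Npvf 2 (6.67% and 2.67% of the Npvf ones). Hcrt and Qrfp shared 2, and Npvf and Qrfp 1 (8.33% and 4.17% of the Qrfp ones). Pmch and Qrfp shared none. In the neuron-gated Pmch source nuclei, Hcrt was at 810.6 CPM against 832.0 in other neurons, and in Hcrt source neurons Pmch was at 3654 CPM against 3132. The other neurons here included source neurons of the second peptide. Neurons that were not its sources were lower, at 129.9 CPM for Hcrt and 424.7 for Pmch. Both source groups held the 4 neuron-gated nuclei that were sources of both peptides. In Qrfp source neurons Pmch was at 479.0 CPM against 3151 in other neurons, a ratio of 0.152 (0.119 to 0.192). The Pmch source neurons were again among those other neurons, and the value lay near the 424.7 CPM of neurons that were not Pmch sources. Npvf was at 88.8 CPM in Pmch source neurons against 27.0 in other neurons, a ratio of 3.28 (2.79 to 3.84). These Pmch source neurons included 2 that were also Npvf sources. Qrfp was 4.70 times higher (2.13 to 9.05, 9 UMIs) in Npvf source neurons than in other neurons. Of these 9 UMIs, at least 5 lay in 1 neuron that was a source of both. The intervals count UMIs, not nuclei, so neither ratio shows that the peptides go together across the group.

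Of the 7 genes listed as known from MCH neurons, 5 were higher in neuron-gated Pmch source nuclei of DOCA-salt 2 than in other neurons. The other 2, Gad2 and Slc17a6, were lower. Counting intervals are narrow here, and genes outside the list also differed, such as Gnaq at 0.769 (0.691 to 0.854) and Gnao1 at 1.13 (1.05 to 1.21). No share over all genes is given, so the size of each ratio is described and not the count. Pmch itself, which chose them, was at 68090 CPM against 424.8 in other neurons. Cartpt, the precursor of the CART peptide that many MCH neurons make, was at 7833 against 109.7 CPM, 71.4 times higher (95% interval 69.2 to 73.7). Tacr3, the neurokinin B receptor, was 31.7 times higher (27.7 to 36.2), and Nptx1, a secreted synaptic pentraxin, 7.21 times (6.81 to 7.63). Among 4150 genes with enough UMIs, those with the largest ratios after Pmch were Otx1, a homeobox factor (87.1 times), Cartpt, Tacr3 and Igf1, a growth factor (31.4 times). All these nuclei come from 1 library, so the intervals do not measure the spread between animals.

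Transmitter genes differed less in the same nuclei. Gad1, which makes GABA, was 1.41 times higher (1.328 to 1.503), while Gad2 was at 0.588 and the glutamate transporter gene Slc17a6 at 0.696 of the level of other neurons. Parpbp, which overlaps Pmch on the other strand, was 15.6 times higher on 17 UMIs. The study lists a share of reads antisense to genes for each library, so the strand of reads was known. Whether any reads of Pmch were counted for Parpbp was not tested. The receptor for MCH was not enriched, with Mchr1 at 0.954 (0.585 to 1.47) of its level in other neurons. Hcrtr1 stood at 1.12 (0.801 to 1.53), Hcrtr2 at 0.570 (0.342 to 0.897) and Qrfpr at 0.491 (0.279 to 0.803).

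Hcrt source neurons of DOCA-salt 2 carried another set. Hcrt stood at 31790 CPM against 129.9 in other neurons. Lhx9, a LIM homeobox factor of orexin neurons, was 34.7 times higher (25.9 to 46.3), Pdyn, the precursor of dynorphin, 9.97 times (8.98 to 11.0), Rfx4 9.70 times (7.90 to 11.8) and Nptx2 5.60 times (4.81 to 6.50). C1ql3, a secreted synaptic protein, led the genes outside that list at 12.03 times, and Pcsk1, which cuts peptide precursors, was at 5.99 times. Cartpt was at 1.17 and Tacr3 at 0.9499 of their level in other neurons, far from the ratios in Pmch source neurons. Gal, the galanin precursor, was 1.44 times higher.

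Npvf and Qrfp source neurons were fewer. In 47 Npvf source neurons Lhx9 was 9.03 times higher than in other neurons (4.58 to 16.2, 12 UMIs) and Gal 3.75 times (3.10 to 4.49). Scg2 and Vgf, granin proteins of secretory vesicles, followed at 1.91 and 1.79 times, and Calb2, a calcium-binding protein, at 1.59 times. In 17 Qrfp source neurons Lhx9 was 19.9 times higher on 11 UMIs (9.78 to 36.5), and Pdyn was at 1.97 times (1.07 to 3.31). Lhx9 thus stood above other neurons in the Hcrt, Npvf and Qrfp source neurons, while in the Pmch ones its ratio was 0.613 (0.197 to 1.45).

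**Figure D3:**
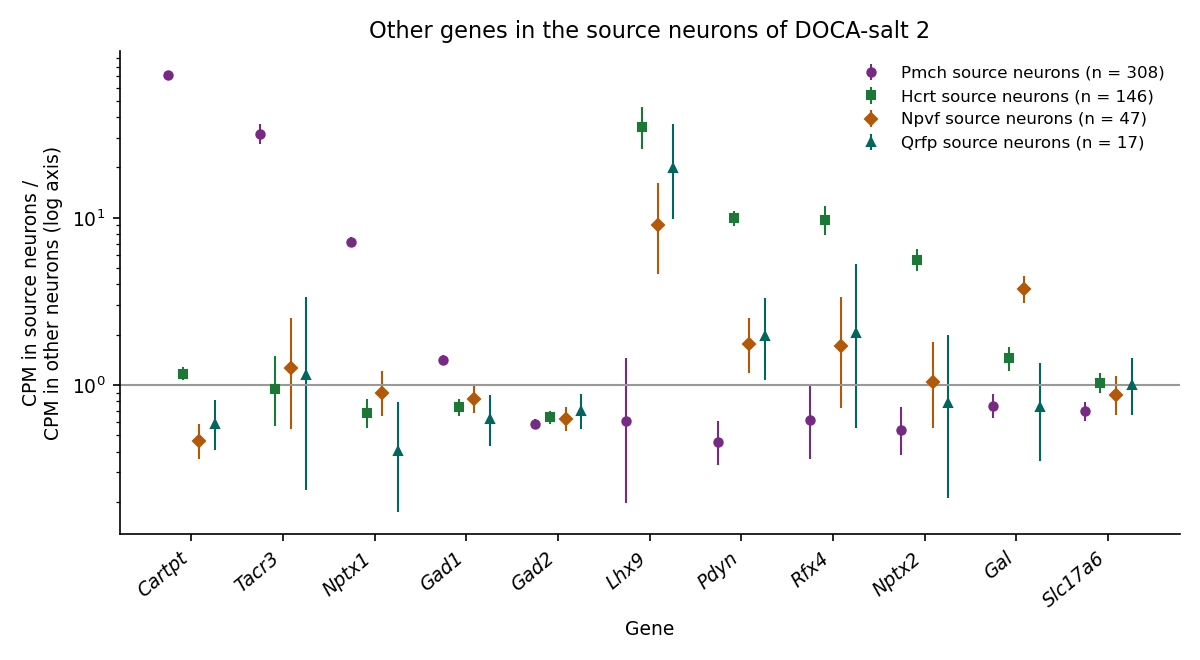
Ratio of CPM in neuron-gated source nuclei of each peptide to CPM in the other neurons of DOCA-salt 2 (log axis), with 95% counting intervals and a grey line at a ratio of 1. Cartpt and Tacr3 are high with Pmch alone (71.4 and 31.7), and Lhx9 is high with Hcrt, Npvf and Qrfp (34.7, 9.03 and 19.9).

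Outside DOCA-salt 2, 48 source nuclei were found for the 4 peptides, and none of their barcodes was also deposited for DOCA-salt 2. The Pmch-richest nucleus of DOCA-salt 1, with 779 Pmch UMIs among 8871, also held 134 Cartpt, 7 Tacr3, 2 Otx1 and 8 Nptx1 UMIs. In Sham 2 the richest, with 370 Pmch UMIs among 12084, held 201 Cartpt, 3 Tacr3, 3 Otx1 and 10 Nptx1 UMIs. The next 4 nuclei of Sham 2 had 55 to 241 Pmch UMIs with 9 to 41 Cartpt UMIs, so the pairing of Pmch with Cartpt seen in DOCA-salt 2 was also present in these nuclei.

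The pattern was partly present in other source nuclei. The remaining 12 of DOCA-salt 1 had 5 to 29 Pmch UMIs and no Tacr3, though a neuron with 15 Pmch UMIs held 46 Cartpt UMIs. The sixth Pmch source of Sham 2, with 8 Pmch UMIs, held 15 Cartpt, 1 Tacr3 and 2 Otx1 UMIs. In Sham 1 the Pmch-richest nucleus, gated as an oligodendrocyte precursor with 163 Pmch UMIs, held 11 Cartpt, 1 Tacr3, 2 Otx1 and 5 Nptx1 UMIs, whereas a neuron-gated nucleus with 148 Pmch UMIs among 3888 held 1 Cartpt UMI, and the 9 neuron-gated sources of that library had no Tacr3 UMI. As a group, Cartpt in neuron-gated Pmch source nuclei was 46.7 times its level in other neurons in Sham 2 (6 nuclei), 6.08 times in DOCA-salt 1 (10 nuclei) and 1.71 times in Sham 1 (9 nuclei). Qrfp sources of Sham 1 held 56, 38, 21, 15, 9 and 8 Qrfp UMIs, and the nucleus with 21, which passed the gate of the committed oligodendrocyte lineage, was also an Hcrt source with 6 Hcrt and 6 Pdyn UMIs.

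Barcodes removed by the limits on genes, UMIs and mitochondrial share held part of the peptide RNA. In DOCA-salt 2 the 847 barcodes removed, 257 of them above 25000 UMIs, held 12.7% of all UMIs but 23.3% of the Pmch and 21.7% of the Hcrt UMIs. In Sham 1 the 602 barcodes removed, 592 of them above 25000 UMIs, held 60.1% of all UMIs, 50.0% of the Pmch, 52.9% of the Hcrt and 60.8% of the Qrfp UMIs. With all deposited barcodes, Sham 1 had 15 Hcrt and 19 Qrfp source nuclei in place of 4 and 6. In Sham 2, 1 removed barcode held 122 of the 158 Npvf UMIs of the library.

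Away from source nuclei, peptide RNA was found in every large class of DOCA-salt 2. Non-source oligodendrocyte-gated nuclei had a Pmch UMI in 54.3% of cases at a median depth of 1002 UMIs, and non-source neurons in 60.5% at 3340. By level, Pmch stood at 681.2 CPM in oligodendrocytes, 686.3 in astrocytes, 743.9 in microglia, 424.7 in neurons, 432.5 in the GABAergic and 338.0 in the glutamatergic gate. Hcrt was at 204.5 CPM in oligodendrocytes, 222.0 in astrocytes and 129.9 in neurons. Levels in neurons lay below those in oligodendrocytes, astrocytes and microglia, while the shares of nuclei with a UMI were taken at different depths. Non-source nuclei lie under 10 times the level of all oligodendrocyte-gated nuclei, sources included, or under 5 UMIs, by the rule that defines them. That rule bounds their level.

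The ratio of Pmch to Hcrt UMIs had overlapping intervals in the neurons and several glial classes. It was 3.21 (3.12 to 3.30) in non-source neurons, 3.23 (2.83 to 3.70) in oligodendrocytes, 3.00 (2.64 to 3.42) in astrocytes and 2.93 (2.53 to 3.41) in microglia, against 3.55 over the whole library. Oligodendrocyte precursors differed, at 5.79 (4.77 to 7.09) on 695 Pmch and 120 Hcrt UMIs, and nuclei with markers of more than 1 class were lower, at 2.33 (2.19 to 2.48) on 3356 and 1439. In the other libraries the ratio in non-source neurons was 2.16 (1.499 to 3.142), 2.72 (2.15 to 3.46) and 2.54 (1.93 to 3.39) for DOCA-salt 1, Sham 1 and Sham 2. Free Pmch in neurons was at 3.76, 16.4 and 6.49 CPM there.

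**Figure D4:**
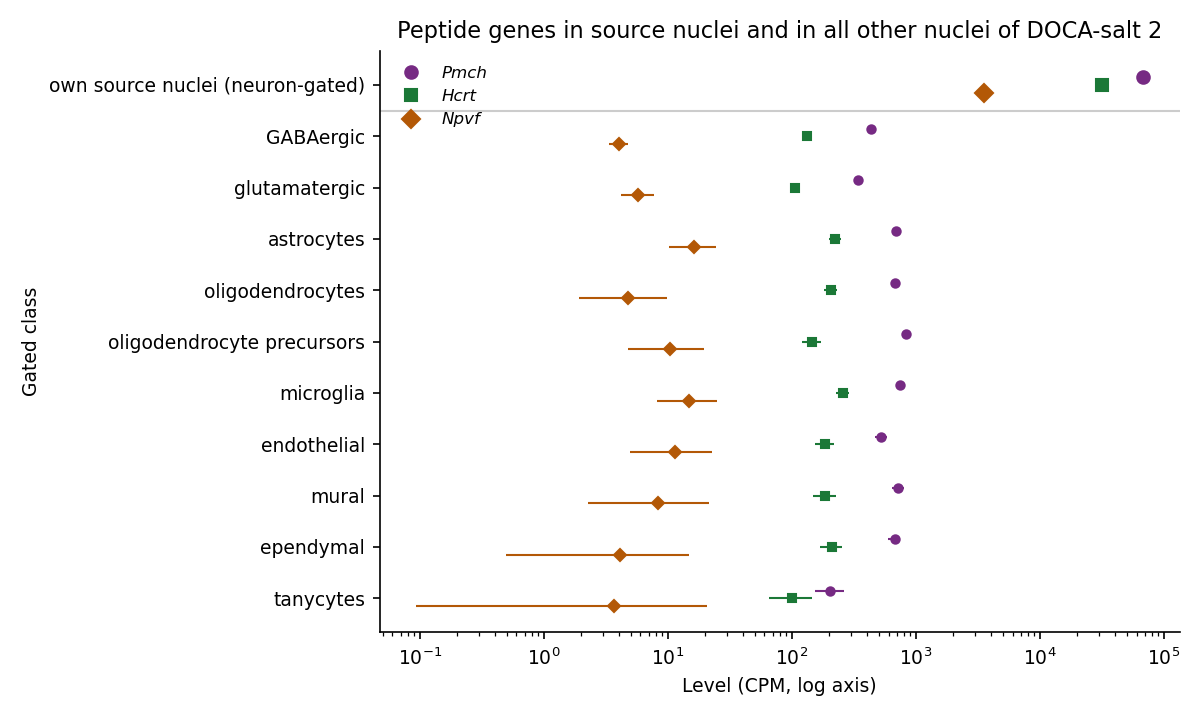
Level (CPM, log axis) of Pmch, Hcrt and Npvf in DOCA-salt 2, in neuron-gated source nuclei of the same peptide (top row) and in non-source nuclei by gated class (bars are 95% Poisson intervals). Pmch falls from 68090 CPM in its source neurons to between 202.3 and 825.5 CPM in the other rows, glia and vascular cells included; 7 fibroblast-gated nuclei (46.65 CPM) are not drawn.

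Treatment was also fitted within each of 15 classes with at least 10 nuclei in every library. None of the 21 receptor tests that could be made there passed (lowest edgeR adjusted p = 0.428), where the share of all genes called was 0% in the GABAergic, glutamatergic, Tac2 and tanycyte gates, 0.088% in astrocytes, 0.0195% in oligodendrocytes, 0.0117% in their precursors, 0.0155% in the committed lineage, 0.0913% in microglia, 0.112% in endothelial and 0.163% in mural cells, 0.0349% in Pomc, 0.0556% in Ghrh, 0.0192% in Sst and 0.0903% in histaminergic nuclei. For the peptides the UMIs are described. Pmch in endothelial-gated nuclei had 31, 2268, 3 and 5 UMIs in DOCA-salt 1, DOCA-salt 2, Sham 1 and Sham 2, and 11 of the 162 nuclei of DOCA-salt 2 were Pmch source nuclei. A single nucleus held 29 of the 31 UMIs in DOCA-salt 1, and another held 955 of those in DOCA-salt 2. Npvf in microglia had 13, 43, 0 and 1 UMIs, and 2 nuclei held all 13 UMIs of DOCA-salt 1. The part of free RNA in both was not tested.

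The 4 receptor genes were measured at about 1 molecule per positive nucleus. Between 80.4% and 96.1% of nuclei with a UMI of a receptor had just 1, and no nucleus had more than 7. In neurons, Mchr1 was detected in 7.13% ± 2.42 of nuclei (SD, n = 4 libraries), Hcrtr1 in 8.14% ± 2.90, Hcrtr2 in 9.98% ± 2.50 and Qrfpr in 4.34% ± 1.27. Oligodendrocyte-gated nuclei, which are shallower, had 2.82% ± 1.98, 3.42% ± 3.19, 2.92% ± 1.60 and 1.89% ± 0.891. Thinned to 1000 UMIs each, neurons were at 1.18%, 1.48%, 1.91% and 0.936% and oligodendrocytes at 1.48%, 1.06%, 0.643% and 0.482% in the same order. Thinning left out 453 of 915 oligodendrocytes and 242 of 10639 neurons in DOCA-salt 2, 103 of 262 and 166 of 5476 in DOCA-salt 1, 79 of 465 and 93 of 4477 in Sham 2, and 0 of 99 and 1 of 1629 in Sham 1, so the oligodendrocytes compared are the deeper part of their class. Among these, the mean Mchr1 share was not higher in neurons, which rested on DOCA-salt 1 (1.77% in neurons, 3.77% of 159 oligodendrocytes). Neurons were higher in DOCA-salt 2 (1.00% against 0.866%), Sham 1 (1.17% against 1.01%) and Sham 2 (0.776% against 0.259%).

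All 4 receptors were higher in neurons than in glia when libraries were compared as pairs of sums, where 46.3% of 15220 genes were called in either direction with 24.3% higher and 22.1% lower in neurons. In neurons Hcrtr2 stood at 31.4, 16.2, 13.6 and 18.4 CPM and in glia at 24.4, 7.61, 7.85 and 8.71. Its log2 difference was 0.76 ± 0.14 (SE, edgeR adjusted p = 0.000228), with neurons higher in 4 of 4 libraries. Qrfpr was at 7.75, 15.8, 5.65 and 7.44 CPM in neurons and at 4.66, 8.04, 6.28 and 3.00 in glia (0.77 ± 0.20, adjusted p = 0.00469), higher in 3 of 4.

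The differences of Mchr1 and Hcrtr1 were smaller. Mchr1 was at 18.7, 10.9, 10.9 and 9.17 CPM in neurons and at 13.6, 9.09, 5.76 and 5.40 in glia (0.49 ± 0.15, adjusted p = 0.0156), and Hcrtr1 was at 14.0, 18.7, 15.2 and 13.7 against 10.0, 11.4, 11.0 and 12.6 (0.42 ± 0.13, adjusted p = 0.0164). Neurons were higher in 4 of 4 libraries for both. As a measure of free RNA in the glial gates, Gad1, Gad2 and Slc17a6, which glia hardly make, differed by just 0.55, 0.66 and 0.50 in the same fit. The part of free RNA in the glial receptor levels was not tested. Mchr1 lost the call without Sham 1 (0.0503) or without Sham 2 (0.0674), Hcrtr1 without DOCA-salt 2 (0.209), and Qrfpr without DOCA-salt 2 (0.102).

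Orexin receptors were higher in glutamatergic than in GABAergic neurons. Of 14328 genes, 8.63% were called in this comparison, 3.57% being higher and 5.07% lower in the GABAergic gate. Simulated data for this comparison gave 20 false calls beside 194 recovered genes. Hcrtr1 stood at 9.50, 13.0, 14.2 and 12.2 CPM in GABAergic and at 21.9, 33.5, 17.7 and 18.1 CPM in glutamatergic nuclei, with glutamatergic nuclei higher in 4 of 4 libraries (GABAergic over glutamatergic, log2 -0.93 ± 0.17, SE, edgeR adjusted p = 0.0141). Hcrtr2 stood at 23.7, 12.3, 12.6 and 17.6 against 43.3, 28.5, 16.3 and 21.8 CPM, also higher in 4 of 4 (-0.75 ± 0.15, adjusted p = 0.0181). Without DOCA-salt 2 both missed the threshold (0.0656 and 0.0649), and Hcrtr1 also did without Sham 2 (0.0640).

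Mchr1 and Qrfpr did not pass in that comparison. Mchr1 was at 19.2, 11.7, 9.93 and 7.93 CPM in GABAergic and 20.5, 9.44, 13.3 and 11.8 in glutamatergic nuclei (-0.17 ± 0.15, adjusted p = 0.537). Qrfpr stood at 4.86, 18.1, 4.62 and 3.46 against 12.3, 12.5, 7.61 and 16.4 CPM (-0.84 ± 0.40, adjusted p = 0.238). In 3 libraries glutamatergic nuclei were higher for Qrfpr, and in DOCA-salt 2 GABAergic ones were. Without DOCA-salt 2 its difference was -1.55 and passed (adjusted p = 0.0220).

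Among peptides in the same comparisons, the source nuclei weighed on the values, so the fitted differences are a description and not offered as tests. Pmch was higher in the GABAergic gate by 1.92 ± 0.44 (SE), a call that was lost without DOCA-salt 2, without Sham 2 and with DESeq2. Hcrt was higher in neurons than in glia by 0.62 ± 0.12, while Pmch was at 0.37. Outside DOCA-salt 2 each of the glial gates held just 0 to 4 Hcrt UMIs. In Sham 2 Hcrt was at 2.55 CPM in neurons, below astrocytes (3.63), precursors (7.25) and microglia (2.95) and above oligodendrocytes (1.57). With Pmch and Hcrt source nuclei left out, the values were 0.27 for Pmch between GABAergic and glutamatergic nuclei, and -0.63 for Hcrt and -0.73 for Pmch between neurons and glia. The rule removes the nuclei highest in these genes, so a fall is built into it and these 3 values carry no test. Npvf was lower in neurons than in glia (-1.15 ± 0.32) and lower in the GABAergic than in the glutamatergic gate (-1.11 ± 0.27). Few nuclei weighed on the glial sums. In DOCA-salt 2, 1 precursor-gated nucleus held 114 Npvf UMIs, and in DOCA-salt 1, 2 microglia-gated source nuclei held 13. Sham 1 had 0 Npvf UMIs in the glial gates and 3 in neurons, the other direction. DESeq2 called neither Npvf difference, and Qrfp was called in neither comparison.

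Among classes with at least 10 nuclei in every library, Hcrtr2 was highest on average in nuclei gated by Hdc with other histaminergic markers. Orexin-2 receptors on histamine neurons are a known route of arousal. Hcrtr2 stood there at 57.6, 74.0, 59.8 and 34.3 CPM on 33, 24, 10 and 10 UMIs in 76, 42, 11 and 28 nuclei, above all neurons of the same library in 4 of 4. Its mean was 56.4 ± 16.5 CPM (SD, n = 4), against 27.6 ± 32.0 in Tac2-gated, 27.4 ± 11.7 in glutamatergic and 24.9 ± 9.24 in Pomc-gated nuclei and 19.9 ± 7.88 in all neurons. Thinned to 1000 UMIs, 2.90% ± 3.40 of these nuclei had a UMI against 1.91% ± 0.692 of neurons, too few to order them. In the same nuclei Hcrtr1 was at 11.2 ± 13.0 CPM, below the 15.4 ± 2.30 of all neurons on average, and Mchr1 at 5.77 ± 4.00.

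Hcrtr1 was high in nuclei gated by Nr5a1 or Fezf1, genes of the ventromedial hypothalamus. It stood there at 58.7, 43.2, 34.6 and 28.7 CPM in 18, 74, 5 and 65 nuclei, above all neurons in each library. Hcrtr2 in those nuclei was at 69.3, 41.9, 17.3 and 18.4 CPM and Qrfpr at 26.7, 14.9, 17.3 and 23.5 CPM. The Sham 1 values rest on 1 to 2 UMIs. These gates were chosen by markers other than the receptors, and the values across them are a description.

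Some class values were much higher in 1 library than in the others or measured well in just 1. Mchr1 was at 69.1 CPM (53.5 to 87.7) in 195 striatal-type nuclei of DOCA-salt 1, the library with high Ppp1r1b, and at 0, 46.8 and 31.7 CPM in the 12, 2 and 14 such nuclei of DOCA-salt 2, Sham 1 and Sham 2, on 0, 1 and 2 UMIs. Qrfpr was at 44.4 CPM in Sst-gated nuclei of DOCA-salt 2 against 0.886, 17.3 and 4.14 in DOCA-salt 1, Sham 1 and Sham 2. Its level in this gate lay above that of all neurons in 2 of 4 libraries. Hcrtr2 was at 75.4 CPM in Tac2-gated nuclei of DOCA-salt 1 against 11.1, 8.85 and 15.01 elsewhere. Hcrtr2 was also high in the glia of DOCA-salt 1, at 24.2 CPM in astrocytes and 23.3 in oligodendrocytes.

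**Figure D5:**
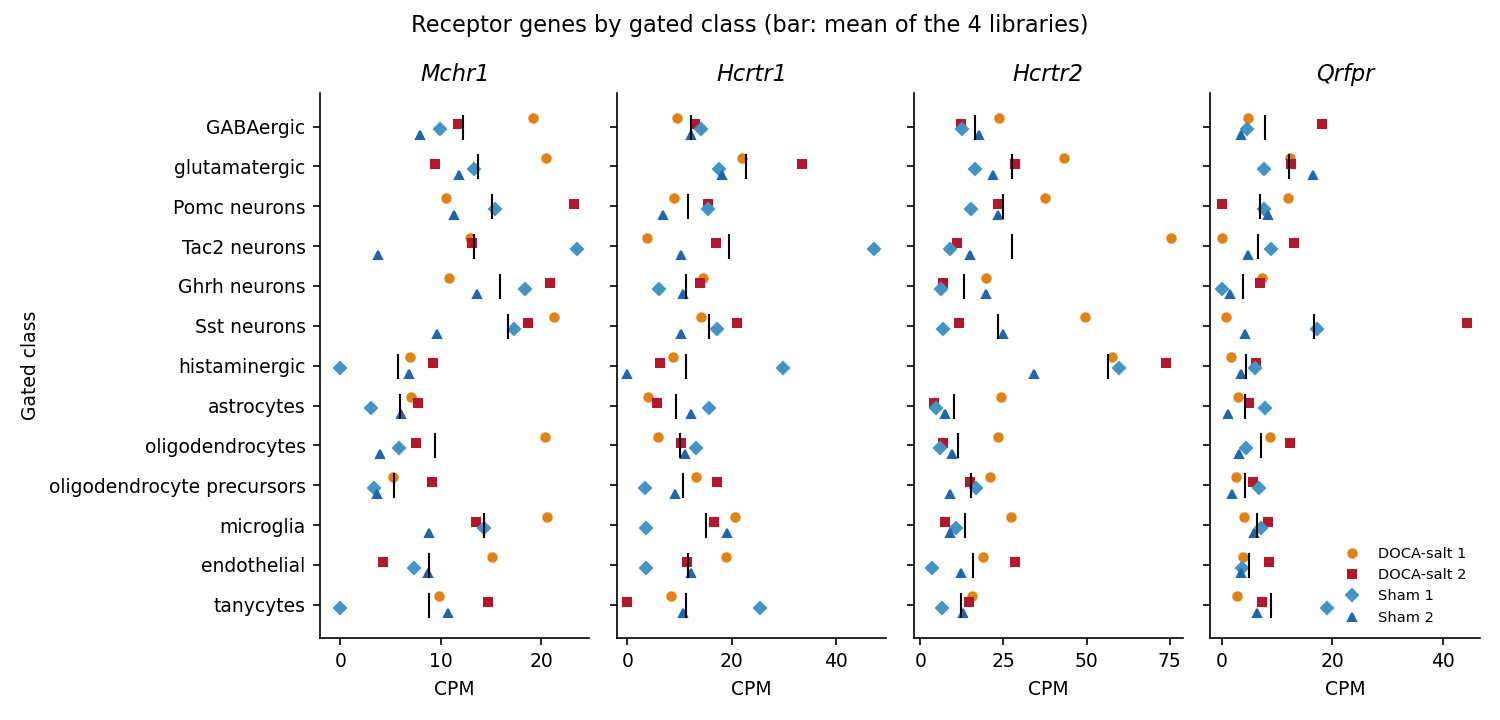
Level (CPM) of the receptor genes in marker-gated classes, 1 point per library, with a black bar at the mean of the 4 libraries. Hcrtr2 in the histaminergic gate (34.3 to 74.0 CPM) lies above every GABAergic value, and Qrfpr in the Sst gate is highest in DOCA-salt 2 (44.4 CPM).

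Over 15 classes averaged across libraries, the receptor profiles were compared with 14142 genes by Pearson's r of log2(CPM + 1). The classes share libraries, so r is a description. The closest genes to Hcrtr2 were Chl1 (0.945), Mllt11 (0.918) and Dpp6 (0.905), and to Hcrtr1 they were Cox5b (0.907), Hapln4 (0.906) and Vps50 (0.906). Mchr1 was closest to Yrdc (0.905), Tox4 (0.901) and Ndufa6 (0.886), and Qrfpr to Catsperz (0.824), Zfp831 (0.804) and Nr0b1 (0.798). Mchr1 and Hcrtr1 had an r of 0.796 with each other, while Hcrtr1 and Hcrtr2 had 0.196.

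Genes that act beside these receptors were present in all libraries. Of 13 G proteins and effectors, none passed the test for treatment, 5 were higher and 3 lower in neurons than in glia, where 46.3% of all genes were called, and 2, Plcb4 and Slc8a2, were lower in the GABAergic gate, where 8.63% were called. Gnaq, the G protein of the orexin receptors, was at 197.6 to 239.8 CPM, and Trpc5, a channel opened through such receptors, at 26.4 to 74.2. Of the RF-amide relatives, Npffr1, the receptor of the Npvf peptides, was at 12.7, 9.30, 19.4 and 18.5 CPM, lower in both DOCA-salt than in both Sham libraries without passing the test, and Kiss1r, the kisspeptin receptor, at 6.68 to 7.20. Npffr1 was higher in neurons than in glia (0.87 ± 0.15, SE, edgeR adjusted p = 0.000166). Of 6 RF-amide relatives tested, none passed for treatment, nor did any of 7 genes known from MCH neurons or 6 known from orexin neurons. Prlh, the prolactin-releasing peptide gene, was called higher in neurons than in glia and lower in the GABAergic gate, beside the same shares. Qrfprl, another QRFP receptor listed with them, was not analysed here.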

How the data were processed

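Single-nucleus libraries were sequenced with the 10x Genomics assay. Per the labels and the submitters' processing notes, reads were aligned to mm10 and counted with Cell Ranger 3.0.1, and the authors deposited filtered matrices of UMI counts (whole numbers, not normalized) for 1 pool per library. Nuclei with over 200 and under 7000 genes, under 25000 UMIs and under 15% mitochondrial UMIs were kept, with genes found in at least 5 nuclei (19946 of 31053). The members and gene lists were chosen with earlier results of these data known.

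Classes were gated by marker UMIs (at least 3 UMIs and 2 markers of a broad class, at least 5 times the list's level in neuron-rich nuclei and at least 2 times the next class; neurons had at least 5 neuron-marker UMIs and at least 50% of the library's median share). GABAergic nuclei had at least 2 UMIs of the GABA genes and 4 times those of Slc17a6. Depth was 21255137 to 69382757 UMIs per library. Summed counts per library were fitted with edgeR 4.0.16 in R 4.3.3 (TMM, quasi-likelihood test, Benjamini-Hochberg adjustment over all genes tested), with the library as a block where classes of the same libraries were compared. DESeq2 1.42.0, other scalings, filters, gates, left-out libraries and replicate blocks were tried as alternatives. The steps were tested on simulated data. The p-values measure the spread between pools. Intervals are exact at 95%, and 3 counts set the limit for a count of 0. Genes named as closest in pattern were the 3 with the highest r, and leading genes of source nuclei those with the largest ratio. The MAST test of the study, which treats nuclei as units, was not used here.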

Additional observations from a re-analysis of the deposited data

How the results depend on the processing

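Over all fits, 380 values of single genes were recomputed, of which 307 kept their direction and side of the threshold, 32 lost the call, 17 gained it and 24 changed sign. The cause of these changes was not tested. For treatment, where edgeR called 0 genes over all nuclei and 0 in neurons, DESeq2 called 107 and 93, and leaving out 1 library gave 1 to 938 and 0 to 944. Such a fit leaves 1 library alone in its group, which is assumed to vary like the pools of the other group. Same-numbered samples did not deviate together (correlation -0.223 over all nuclei and -0.244 in neurons). With 2 pools per group, these values cannot show whether the numbers pair the pools. A replicate block gave 0 calls over all nuclei and 3 in neurons, and a crossed replicate block, chosen after seeing the data, 58 and 54. Without the library as a block, the GABAergic against glutamatergic comparison called 84 genes in place of 1237 and neurons against glia 2499 in place of 7053, and no receptor gene passed. Leaving out 1 library gave 267 to 1493 calls in the former. In the other gated classes, leaving out 1 library (chosen after seeing the data) gave 10 to 36 calls of the 8 genes in place of 2 (Pmch in endothelial-gated nuclei and Npvf in microglia, which the report describes without a test), with other genes testable.

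Signs changed as follows on the log2 scale. Without DOCA-salt 2, the treatment difference over all nuclei was -0.44 for Pmch, -2.22 for Hcrt, -0.14 for Npvf, -0.17 for Hcrtr1 and -0.0058 for Qrfpr, and in neurons -0.0038 for Pmch, -2.38 for Hcrt, -1.90 for Npvf and -0.11 for Hcrtr1. Hcrtr1 was at -0.054 without Sham 2. Qrfp was at 0.13 and 0.30 without DOCA-salt 1 (all nuclei and neurons) and at 1.40 and 1.33 without Sham 1. For GABAergic over glutamatergic nuclei, Hcrt was at -0.42 without the library block, -0.11 without DOCA-salt 1, -0.33 without Sham 1 and -0.036 with a stricter gate. For neurons over glia, Qrfp was at -0.47 without Sham 1, -0.029 without Sham 2 and -0.58 with the stricter gate, Pmch at -0.086 without DOCA-salt 2 and -0.73 without source nuclei, and Hcrt at -0.63 without source nuclei. Leaving out source nuclei removes those highest in Pmch or Hcrt, so a fall of these genes is built into that setting. For these genes, the opposite ends of the range over left-out libraries were, over all nuclei, 6.25 for Pmch, 7.37 for Hcrt, 7.01 for Npvf, -5.57 for Qrfp, 0.27 for Hcrtr1 and 1.15 for Qrfpr, and in neurons 6.44, 7.38, 6.32, -5.32 and 0.39 for the first 5. They were 1.10 for Hcrt in GABAergic over glutamatergic nuclei, and 2.61 for Qrfp and 1.26 for Pmch in neurons over glia.

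Source nuclei of DOCA-salt 2 numbered 815 for Pmch, 403 for Hcrt and 97 for Npvf at 3 UMIs and 5 times the background, and 443, 180, 51 and, for Qrfp, 11 at 10 UMIs and 20 times, where Npvf in DOCA-salt 1 had 0. All barcodes gave 693 for Pmch and 94 for Npvf in DOCA-salt 2, and 15 for Hcrt and 19 for Qrfp in Sham 1. A background without source nuclei, chosen after seeing the data, gave 755 for Pmch and 414 for Hcrt. Thinned to 1000 UMIs, the share of neurons with a UMI was 1.18% for Mchr1, 1.48% for Hcrtr1, 1.91% for Hcrtr2 and 0.936% for Qrfpr, and of oligodendrocytes 0.643% for Hcrtr2 and 0.482% for Qrfpr.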
